A study of Mus musculus with 9 samples.

Results

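Wnt signalling was followed through 36 genes chosen by symbol, the rows of the deposited table for 11 Wnt ligands, 9 Frizzled receptors, 5 co-receptors or alternative receptors, 8 cytoplasmic transducers, 2 TCF transcription factors and the secreted inhibitor Sfrp1, out of 43629 genes in all. Wnt proteins are secreted lipid-modified signals that bind Frizzled receptors together with the co-receptors Lrp5 or Lrp6. In the canonical branch this stops a complex of Axin, Apc and Gsk3b from destroying beta-catenin (Ctnnb1), which then enters the nucleus and switches genes on with TCF and LEF factors. Wnt signals have been studied in bone marrow for their part in the self-renewal of blood stem cells and of myeloid leukaemia cells.

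Total RNA was sequenced from bone marrow cells of C57BL/6 mice that had been given pIpC, a double-stranded RNA analogue that induces interferon and is widely used to switch on interferon-driven Cre alleles. Antibody-coated beads enriched cells that carry CD117 (c-Kit), a receptor tyrosine kinase of blood stem and progenitor cells. There were 3 libraries each of Cbfb+/MYH11, which carry 1 copy of the fusion of Cbfb (a subunit of the Runx transcription factors) with the smooth muscle myosin gene MYH11 known from a human acute myeloid leukaemia, of Cbfb+/mDE and of WT mice. All 9 libraries share the pIpC treatment. The labels do not explain mDE. Age, sex, any Cre allele, the time since pIpC and the number of animals behind a library were not given in the sources used here, so the p-values below reflect no more than the spread among these libraries, which may be technical.

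The libraries held 39300366 to 50073097 reads. Values are normalised reads, the deposited gene counts divided by a size factor per library. Myh11 stood at 219, 194 and 176 normalised reads in Cbfb+/MYH11, at 28.7, 41.4 and 43.8 in Cbfb+/mDE and at 7.72, 8.64 and 4.70 in WT, highest in the genotype labelled with the MYH11 fusion. How many of these reads come from the knock-in alleles was not tested. Kit itself averaged 3538 ± 321 normalised reads in Cbfb+/MYH11, 7256 ± 329 in Cbfb+/mDE and 7504 ± 253 in WT (SD, n = 3 each), so the selected marker was present throughout and lower in Cbfb+/MYH11 than in WT (limma log2 fold change -1.09 ± 0.07 SE, adjusted p = 2.06e-06).

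Markers of other cell types moved with genotype. Of 6 mast cell markers, 5 were tested and all 5 rose in Cbfb+/MYH11 over WT; the 6 summed to 50168 to 87542 normalised reads in Cbfb+/MYH11, 2702 to 3964 in Cbfb+/mDE and 3027 to 3639 in WT. All 6 late neutrophil markers fell, with sums of 126340 to 606810 in Cbfb+/MYH11, 4521511 to 6129430 in Cbfb+/mDE and 4006272 to 4947291 in WT. Of the 7 tested among 10 stromal and endothelial markers, Cxcl12 and Kdr rose and Col1a1 and Col1a2 fell, with sums of 1179 to 2292 in Cbfb+/MYH11, 379 to 749 in Cbfb+/mDE and 568 to 843 in WT, while Pdgfra stayed at or below 4.43 normalised reads in every library. Among the 6 markers each, progenitor genes gave 1 rise and 5 falls, macrophage genes 4 rises and 2 falls, B cell genes 1 rise, T cell genes 1 rise and 2 falls, and erythroid genes 1 rise and 2 falls. The part of these shifts in the Wnt results was not tested, and in bulk RNA fewer cells of a type cannot be told apart from less RNA per cell.

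Of the 36 members, 24 had enough reads to be tested and 12 did not. In Cbfb+/MYH11 over WT, 11 members rose and 3 fell (limma on log2(normalised reads + 1), Benjamini-Hochberg adjusted over all 15948 genes tested, adjusted p under 0.05, two-sided). The 14 called members were 58.3% of those tested, near the 59.8% called among all genes, of which 32% rose and 27.8% fell, and 17 members were at an unadjusted p under 0.05, beside 63.9% of all genes. In Cbfb+/mDE over WT, limma called 0 members, beside 1.24% of all genes (0.821% higher and 0.42% lower); 7 members were at an unadjusted p under 0.05, beside 19.8% of all genes, edgeR called 0 and DESeq2 called 2, Fzd3 higher and Ryk lower. In Cbfb+/MYH11 over Cbfb+/mDE, 10 members rose and 4 fell, again 58.3% of those tested, beside 55.6% of all genes, of which 29.6% rose and 26% fell. At an unadjusted p under 0.05 were 16 members, beside 60.2% of all genes. The comparisons share libraries and are not independent of each other.

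The median log2 fold change of the tested members was 0.33 in Cbfb+/MYH11 over WT and 0.15 in Cbfb+/mDE over WT, beside 0.016 and 0.015 for all genes tested. The first of these medians is the same with Wnt2, the highest member, at its bound. Libraries did not overlap between groups for 15 of the 24 tested members in Cbfb+/MYH11 against WT (62.5%, and 68.7% of all genes), for 6 in Cbfb+/mDE against WT (25.0%, and 26.1% of all genes) and for 16 in Cbfb+/MYH11 against Cbfb+/mDE (66.7%, and 62.2% of all genes). Of the tested members, 18 were above the read filter in every library and 6 (Wnt2, Wnt2b, Wnt10a, Fzd4, Fzd8 and Fzd9) were not. Of the 14 called over WT, 10 were above it in every library; Wnt2, Fzd4, Wnt10a and Fzd9 were tested through the groups where they are high.

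**Figure D1:**
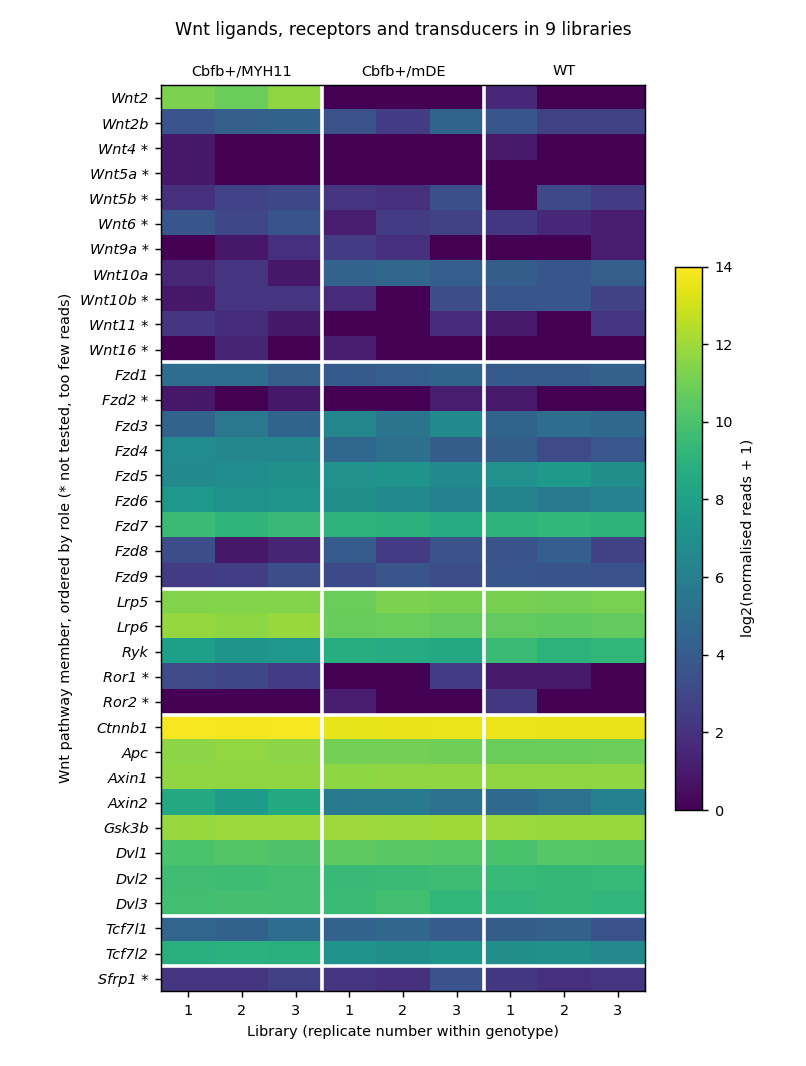
Level of each of the 36 members, as log2(normalised reads + 1) by colour, in 3 libraries each of Cbfb+/MYH11, Cbfb+/mDE and WT (columns); rows run by role and stars mark the 12 untested members. Wnt2 is bright in the 3 Cbfb+/MYH11 columns only, while Ctnnb1, Axin1 and Gsk3b are bright in all 9.

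The promoters of the 4 members with the largest rises are shown because their levels moved most. They are RefSeq windows of the GRCm38.p6 build, 5′ to 3′ on the gene's strand, kept to the bases outside the exons that GENCODE M21 annotates at that start; capitals mark a GATA match (GATAA, or TTATC where it lies on the other strand), and no Runx or TCF/LEF match was found in the windows of these 4. Wnt2 is given upstream of the GENCODE start (chr6:18030586-18030695, minus strand) and at its matches inside the GENCODE first exon (chr6:18030473-18030493 and chr6:18030446-18030462). Fzd4 is chr7:89404116-89404354, Axin2 chr11:108920099-108920348, and Tcf7l2 chr19:55741560-55741809 and chr19:55895071-55895320, all on the plus strand.
Wnt2 upstream: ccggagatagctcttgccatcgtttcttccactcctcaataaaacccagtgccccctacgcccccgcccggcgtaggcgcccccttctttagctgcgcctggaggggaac
Wnt2 match a: gctgccctTTATCgctcgctg
Wnt2 match b: ttgaaactTTATCagtg
Fzd4: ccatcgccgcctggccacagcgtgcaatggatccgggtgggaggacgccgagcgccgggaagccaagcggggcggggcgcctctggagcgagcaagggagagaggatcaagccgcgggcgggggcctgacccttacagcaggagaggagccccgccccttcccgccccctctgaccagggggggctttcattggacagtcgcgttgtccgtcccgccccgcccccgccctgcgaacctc
Axin2: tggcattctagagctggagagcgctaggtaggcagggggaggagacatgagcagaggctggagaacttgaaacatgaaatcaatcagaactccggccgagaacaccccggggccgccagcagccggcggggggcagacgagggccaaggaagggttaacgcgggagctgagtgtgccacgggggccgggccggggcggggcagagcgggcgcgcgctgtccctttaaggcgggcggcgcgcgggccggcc
Tcf7l2 first start: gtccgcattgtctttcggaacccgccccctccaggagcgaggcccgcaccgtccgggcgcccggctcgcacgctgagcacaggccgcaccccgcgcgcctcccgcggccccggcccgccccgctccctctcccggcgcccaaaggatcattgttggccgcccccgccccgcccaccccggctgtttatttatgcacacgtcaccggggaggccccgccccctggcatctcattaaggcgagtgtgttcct
Tcf7l2 inner start: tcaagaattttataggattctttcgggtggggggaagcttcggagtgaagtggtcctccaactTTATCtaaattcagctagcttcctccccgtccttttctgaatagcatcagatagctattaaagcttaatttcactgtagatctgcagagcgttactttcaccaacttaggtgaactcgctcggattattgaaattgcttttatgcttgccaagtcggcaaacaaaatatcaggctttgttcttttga

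RefSeq windows were found for 25 of the 36 members. The motifs searched, in the 250 bases before each start and on both strands, were TGTGGT for Runx, CTTTGA for TCF/LEF and GATAA for GATA, none of which contains another. They occurred in 1, 5 and 3 of the 25 members, against 14.0%, 13.8% and 22.6% of all 32851 windows. A member counted if any of its windows held the motif, and some members have more than 1 window. The counts of members and the shares of windows are therefore in unlike units. The GATA matches were in Wnt2, Fzd1 and Tcf7l2, and the Runx match was in Ror1, a low member. These are matches of letters in a window and not binding sites.

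Among the ligands, Wnt2 (ENSMUSG00000010797, chr6:17988940-18030585, minus strand, GRCm38), a canonical ligand known from lung and liver development, was high in a single genotype. It had 2399, 1782 and 3235 normalised reads in Cbfb+/MYH11, 0 in each of the 3 Cbfb+/mDE libraries and 1.93, 0 and 0 in WT. All 3 Cbfb+/MYH11 libraries were far above every other library, in which Wnt2 was at or near 0. The 8397 reads in Cbfb+/MYH11 against 2 in WT gave a ratio of 3609, with an exact 95% counting interval of 999 to 29804. Against the limit that 3 reads in each Cbfb+/mDE library allow, Wnt2 was at least 798-fold higher in Cbfb+/MYH11; these figures cover counting error only. Wnt2 was above the read filter in Cbfb+/MYH11 alone, so it entered the test only through the group where it is high. The limma adjusted p, 2.45e-07 over WT and 2.94e-07 over Cbfb+/mDE, is given for completeness and not as support beyond the values.

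Per kb of exon, Wnt2 reached 1096 normalised reads in Cbfb+/MYH11, second among the members to Ctnnb1 at 2822. It made up 98.3% to 99.0% of the summed per-kb level of the 11 ligands in the Cbfb+/MYH11 libraries, 0% in Cbfb+/mDE and 0% to 5.22% in WT. The 11 ligands together summed to 1825 to 3281 normalised reads in Cbfb+/MYH11, against 37.8 to 65.7 in Cbfb+/mDE and 39.9 to 49.2 in WT. Nearly all of that difference was Wnt2.

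Wnt10a, a canonical ligand known from tooth and skin development, moved the other way at a low level. It had 1.81, 3.41 and 0.886 normalised reads in Cbfb+/MYH11, 19.8, 23.4 and 17.5 in Cbfb+/mDE and 16.4, 12.5 and 17.6 in WT. Cbfb+/MYH11 lay below both other groups with no overlap, on 7 reads in all, against 60 in Cbfb+/mDE and 45 in WT (limma log2 fold change over WT -2.52 ± 0.34 SE, adjusted p = 0.000192). Wnt10a was not above the read filter in Cbfb+/MYH11 and was tested through the groups where it is high. Its adjusted p is therefore not support beyond the values. Wnt10a had on average the largest per-kb share of the ligands in Cbfb+/mDE, at 51.5% ± 16.9, and in WT, at 42.9% ± 7.96 (SD, n = 3 each).

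Wnt2b, the relative of Wnt2, had 11.7, 17.9 and 19.5 normalised reads in Cbfb+/MYH11, 9.92, 4.50 and 21.9 in Cbfb+/mDE and 12.5, 5.76 and 5.87 in WT. Its groups overlapped and it passed no test (adjusted p = 0.126 over WT). The other 8 ligands, Wnt4, Wnt5a, Wnt5b, Wnt6, Wnt9a, Wnt10b, Wnt11 and Wnt16, were too low to test, with no library above 12.7 normalised reads. Wnt6 had 12.7, 6.82 and 11.5 normalised reads in Cbfb+/MYH11, 1.10, 4.50 and 5.47 in Cbfb+/mDE and 3.86, 1.92 and 1.17 in WT. Its Cbfb+/MYH11 libraries lay above all others, and Cbfb+/mDE and WT overlapped. With no filter on low counts Wnt6 was called higher over WT (log2 fold change 1.81, adjusted p = 0.0181), while Wnt10b, at 9 reads in Cbfb+/MYH11, 10 in Cbfb+/mDE and 31 in WT, was not (adjusted p = 0.110). The Cbfb+/MYH11 libraries of Wnt10b lay below those of WT without overlap, and it passed the filter and was called lower without Cbfb+/mDE replicate 2 (adjusted p = 0.0305) or 3 (0.0324). In those fits Wnt10b passed the filter only through WT libraries, the group where it is high. These calls are therefore not support beyond the values. Sfrp1, a secreted protein that binds Wnts and blocks them, had 14 reads in Cbfb+/MYH11, 16 in Cbfb+/mDE and 10 in WT and was not tested.

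Among the Frizzled receptors, Fzd4 and Fzd6 rose in Cbfb+/MYH11 over WT and Fzd9 fell, while 5 of the 8 tested passed no test and Fzd2 was too low to test. In the same comparison 59.8% of all genes were called. Fzd4 (ENSMUSG00000049791, chr7:89404355-89413134), the receptor of Norrin as well as of Wnts, had 108, 86.9 and 93.0 normalised reads in Cbfb+/MYH11, 24.3, 35.1 and 16.4 in Cbfb+/mDE and 16.4, 8.64 and 12.9 in WT. Cbfb+/MYH11 stood above both other groups, and the lowest Cbfb+/mDE library was level with the highest WT library. The log2 fold change was 2.87 ± 0.32 SE over WT (adjusted p = 5.18e-05) and 1.94 ± 0.32 over Cbfb+/mDE (adjusted p = 0.000631); for Cbfb+/mDE over WT it was 0.92 ± 0.32 (adjusted p = 0.165). Fzd4 was above the read filter in all libraries of Cbfb+/MYH11 and Cbfb+/mDE but not of WT, so it was tested through the groups where it is higher.

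Fzd6 (ENSMUSG00000022297, chr15:39006034-39038188), a receptor known from planar cell polarity in skin, had 177, 139 and 157 normalised reads in Cbfb+/MYH11, 120.2, 103 and 69.0 in Cbfb+/mDE and 76.2, 51.8 and 72.8 in WT. Cbfb+/MYH11 was above WT without overlap, and Cbfb+/mDE overlapped WT. The log2 fold change was 1.24 ± 0.24 SE over WT (adjusted p = 0.00158) and 0.72 ± 0.24 over Cbfb+/mDE (adjusted p = 0.0273). The second of these calls was lost without Cbfb+/mDE replicate 3 (adjusted p = 0.0869) or Cbfb+/MYH11 replicate 1 (0.0880) or 3 (0.0652).

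Fzd3 (ENSMUSG00000007989, chr14:65192449-65262463), a receptor known from axon guidance, averaged more in Cbfb+/mDE than in the other genotypes. It had 20.8, 45.2 and 22.2 normalised reads in Cbfb+/MYH11, 83.8, 40.5 and 97.4 in Cbfb+/mDE and 22.2, 30.7 and 25.8 in WT. All Cbfb+/mDE libraries were above WT, but the lowest of them lay below 1 Cbfb+/MYH11 library. Fzd3 was lower in Cbfb+/MYH11 than in Cbfb+/mDE by limma (log2 fold change -1.30 ± 0.39 SE, adjusted p = 0.0180), and the call was lost without Cbfb+/mDE replicate 1 or 3 or Cbfb+/MYH11 replicate 1 or 3 (adjusted p 0.0587 to 0.0680). Cbfb+/mDE over WT gave 1.38 ± 0.39 with an adjusted p of 0.112 by limma and 0.0239 by DESeq2.

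Fzd7, a receptor linked to stem cell maintenance in the gut, was the main Frizzled per kb in every group, at 65.9% ± 1.93 of the summed level in Cbfb+/MYH11, 64.3% ± 0.116 in Cbfb+/mDE and 71.2% ± 1.57 in WT (SD, n = 3 each). Its 732, 567 and 704 normalised reads in Cbfb+/MYH11 overlapped the 522, 607 and 556 in WT (adjusted p = 0.130), but not the 525, 503 and 408 in Cbfb+/mDE (log2 fold change 0.48 ± 0.13 SE, adjusted p = 0.0106). Fzd9 had 21 reads in Cbfb+/MYH11, 28 in Cbfb+/mDE and 34 in WT (log2 fold change over WT -0.85 ± 0.30 SE, adjusted p = 0.0347), and it was above the read filter in WT alone, the group where it is high. The call was lost with no filter on low counts (adjusted p = 0.0858), under DESeq2 (0.180), with the replicate number as a block (0.0555) and without any single WT library or Cbfb+/MYH11 replicate 1 or 2. Fzd8, at 13 reads in Cbfb+/MYH11, 29 in Cbfb+/mDE and 35 in WT, was called lower over WT only without WT replicate 3 or Cbfb+/MYH11 replicate 1 or with the replicate number as a block; its adjusted p was 0.0607. Fzd1 (adjusted p = 0.0720) and Fzd5 (0.185) passed no test over WT, although Fzd1 was called higher without Cbfb+/MYH11 replicate 3.

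**Figure D2:**
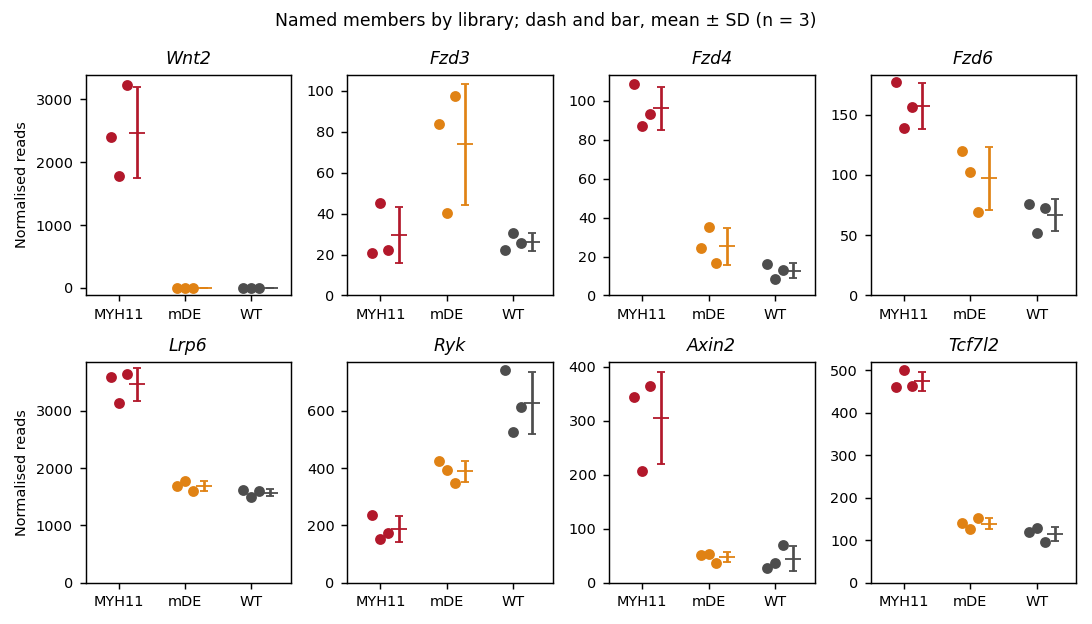
Normalised reads of the 8 members named in full, in each library of Cbfb+/MYH11, Cbfb+/mDE and WT (points), with the mean and SD of 3 libraries beside them; each panel has its own linear axis. Cbfb+/MYH11 lies apart from both other groups for Wnt2, Fzd4, Fzd6, Lrp6, Ryk, Axin2 and Tcf7l2, and overlaps them for Fzd3.

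Lrp6 (ENSMUSG00000030201, chr6:134446476-134566965), a co-receptor of canonical Wnts, had 3595, 3137 and 3652 normalised reads in Cbfb+/MYH11, 1689.9, 1768 and 1607 in Cbfb+/mDE and 1619, 1498 and 1602 in WT. Cbfb+/MYH11 was 2.20-fold higher than WT with no overlap, and Cbfb+/mDE overlapped WT. The log2 fold change was 1.13 ± 0.07 SE over WT (adjusted p = 1.74e-06), 1.03 ± 0.07 over Cbfb+/mDE (adjusted p = 3.57e-06) and 0.10 ± 0.07 for Cbfb+/mDE over WT (adjusted p = 0.451).

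Lrp5, its close relative, moved far less, at 2568, 2749.6 and 2715 normalised reads in Cbfb+/MYH11, 1835, 2372 and 2236 in Cbfb+/mDE and 2230.0, 2163 and 2348 in WT. Its rise over WT (log2 fold change 0.25 ± 0.09 SE, adjusted p = 0.0339) was lost without WT replicate 1 or 2 or Cbfb+/MYH11 replicate 2 or 3. The per-kb ratio of Lrp6 to Lrp5 was therefore 0.923 ± 0.0974 in Cbfb+/MYH11, 0.566 ± 0.0782 in Cbfb+/mDE and 0.499 ± 0.0163 in WT (SD, n = 3 each).

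Ryk (ENSMUSG00000032547, chr9:102834917-102908305), a Wnt receptor with an inactive kinase domain that acts outside the canonical branch, fell. It had 238, 153 and 173 normalised reads in Cbfb+/MYH11, 423, 393 and 349 in Cbfb+/mDE and 741, 527 and 613 in WT. The 3 genotypes did not overlap, with Cbfb+/mDE between the others. The log2 fold change was -1.75 ± 0.18 SE for Cbfb+/MYH11 over WT (adjusted p = 3.46e-05) and -1.07 ± 0.18 over Cbfb+/mDE (adjusted p = 0.000807). For Cbfb+/mDE over WT it was -0.68 ± 0.18, with the smallest adjusted p of any member in that comparison, 0.0994 by limma and 0.00899 by DESeq2.

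Ror1, a receptor kinase for Wnt5a, was not tested but had 8.13, 6.82 and 4.43 normalised reads in Cbfb+/MYH11, 0, 0 and 4.38 in Cbfb+/mDE and 0.965, 0.960 and 0 in WT. With no filter on low counts it was called higher over WT (log2 fold change 2.22, adjusted p = 0.0185). Its paralog Ror2 had 0 reads in Cbfb+/MYH11, 1 in Cbfb+/mDE and 4 in WT.

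**Figure D3:**
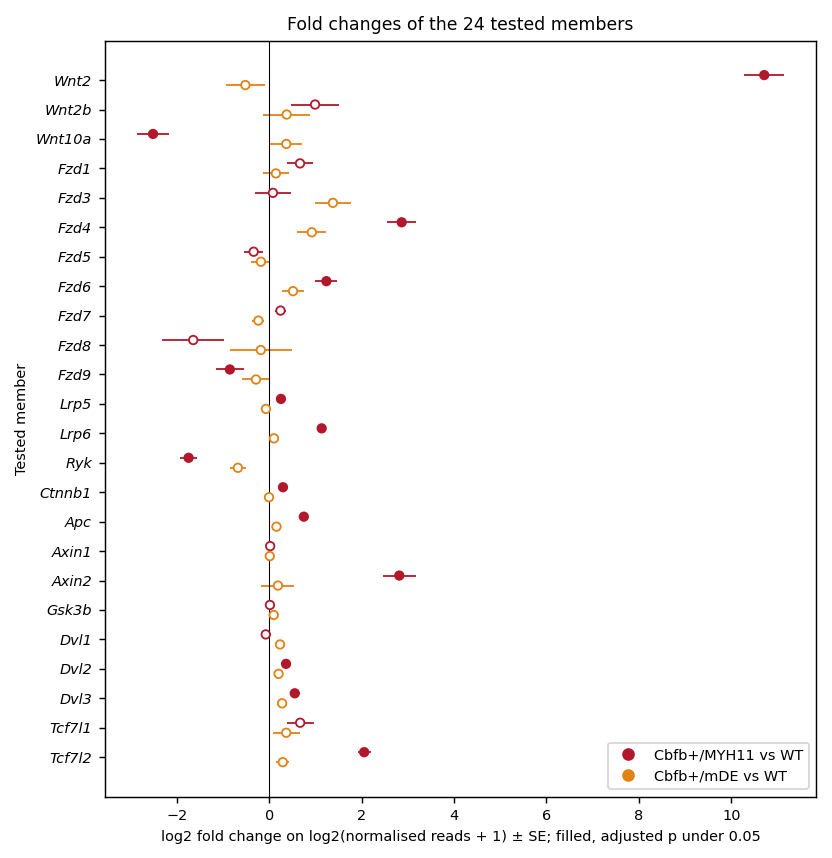
Log2 fold change on log2(normalised reads + 1) with its SE for the 24 tested members, in Cbfb+/MYH11 over WT (red) and Cbfb+/mDE over WT (orange); filled points have an adjusted p under 0.05. The filled red points run from Wnt10a at -2.52 to Wnt2 at 10.71 (a fitted value that depends on the pseudocount), and no orange point is filled.

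In Cbfb+/MYH11 over WT, where 32% of all genes rose and 27.8% fell, 5 of the 8 cytoplasmic transducers rose and 0 fell. All 8 were tested, and 3 passed no test. Axin2 (ENSMUSG00000000142, chr11:108920349-108950783), a scaffold of the destruction complex that is itself a widely used readout of canonical signalling, moved most. It had 344, 206 and 363 normalised reads in Cbfb+/MYH11, 51.8, 54.0 and 37.2 in Cbfb+/mDE and 27.0, 36.5 and 70.5 in WT. The lowest Cbfb+/MYH11 library was above every other library, while Cbfb+/mDE and WT overlapped. The log2 fold change was 2.81 ± 0.36 SE over WT (adjusted p = 0.000121), 2.63 ± 0.36 over Cbfb+/mDE (adjusted p = 0.000208) and 0.19 ± 0.36 for Cbfb+/mDE over WT (adjusted p = 0.799).

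Axin1, the scaffold that is made in most cells, stayed within 3206 to 3333 normalised reads over the 9 libraries, with a log2 fold change of 0.02 ± 0.04 SE over WT (adjusted p = 0.702). Axin2 made up 5.99% ± 1.57 of the summed per-kb Axin level in Cbfb+/MYH11, 0.999% ± 0.198 in Cbfb+/mDE and 0.938% ± 0.465 in WT (SD, n = 3 each). The kinase Gsk3b likewise passed no test, with a log2 fold change of 0.01 ± 0.04 over WT (adjusted p = 0.780). Its level was 3745 ± 22.6 normalised reads in Cbfb+/MYH11, 3966 ± 123 in Cbfb+/mDE and 3707 ± 52.3 in WT (SD, n = 3 each).

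Ctnnb1, the highest member per kb in every group, had 15051, 14153 and 14757 normalised reads in Cbfb+/MYH11, 11586, 11709 and 12359 in Cbfb+/mDE and 12229, 11873 and 11683 in WT. Cbfb+/MYH11 was higher without overlap by a small amount, a log2 fold change of 0.30 ± 0.05 SE over WT (adjusted p = 0.000663). Apc, the tumour suppressor of the destruction complex, rose by 0.75 ± 0.06 over WT on the log2 scale (adjusted p = 5.94e-06), to 3162 ± 192 normalised reads in Cbfb+/MYH11, against 2096 ± 80.6 in Cbfb+/mDE and 1881 ± 47.7 in WT (SD, n = 3 each).

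The Dishevelled genes, which relay the signal from Frizzled, split. Dvl2 (log2 fold change 0.36 ± 0.07 SE) and Dvl3 (0.55 ± 0.11) rose over WT (adjusted p = 0.00129 and 0.00200), and Dvl1 did not pass (-0.08 ± 0.11, adjusted p = 0.573). Dvl1 was lower in Cbfb+/MYH11 than in Cbfb+/mDE (-0.31 ± 0.11, adjusted p = 0.0383), a call lost with no filter on low counts and without WT replicate 3, Cbfb+/mDE replicate 1 or 2 or Cbfb+/MYH11 replicate 1 or 3. Dvl1, Dvl2, Ctnnb1, Apc and Wnt5b overlap another annotated gene, and the sources used here do not say whether counting used strand, so their counts may hold some of that gene's reads.

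Of the TCF factors, Tcf7l2 (ENSMUSG00000024985, chr19:55741820-55933654), a partner of beta-catenin in many tissues, had 461, 499 and 462 normalised reads in Cbfb+/MYH11, 140.0, 126 and 152 in Cbfb+/mDE and 119.7, 128 and 95.1 in WT. Cbfb+/MYH11 stood far above both other groups, which overlapped. The log2 fold change was 2.05 ± 0.14 SE over WT (adjusted p = 2.78e-06), 1.76 ± 0.14 over Cbfb+/mDE (adjusted p = 7.91e-06) and 0.29 ± 0.14 for Cbfb+/mDE over WT (adjusted p = 0.282). Tcf7l1, mainly a repressor, was low at 22.6, 19.6 and 31.0 normalised reads in Cbfb+/MYH11, 19.8, 23.4 and 15.3 in Cbfb+/mDE and 16.4, 18.2 and 10.6 in WT. Its Cbfb+/MYH11 libraries lay above WT without overlap, but it passed no test (adjusted p = 0.0758 over WT).

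Tcf7 and Lef1, the family's other factors, were not members. The shares of Tcf7l2 and Tcf7 moved in opposite directions. Per kb, Tcf7l2 made up 43.1% ± 5.38 of the family's summed level in Cbfb+/MYH11, 9.36% ± 0.604 in Cbfb+/mDE and 8.61% ± 1.04 in WT, while Tcf7, the T cell factor also found in blood progenitors, made up 16.0% ± 3.89 in Cbfb+/MYH11, 63.8% ± 9.24 in Cbfb+/mDE and 65.2% ± 3.22 in WT (SD, n = 3 each). Tcf7 itself fell in Cbfb+/MYH11, with 43.4, 75.9 and 42.5 normalised reads, against 256, 273 and 318 in Cbfb+/mDE and 241, 269.7 and 263 in WT (log2 fold change over WT -2.29 ± 0.22 SE, adjusted p = 2.02e-05). Lef1 passed no test (0.33 ± 0.32 over WT, adjusted p = 0.393), and a single Cbfb+/mDE library, replicate 1, held 572 normalised reads of it, against 230.2 and 291 in the other Cbfb+/mDE libraries.

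**Figure D4:**
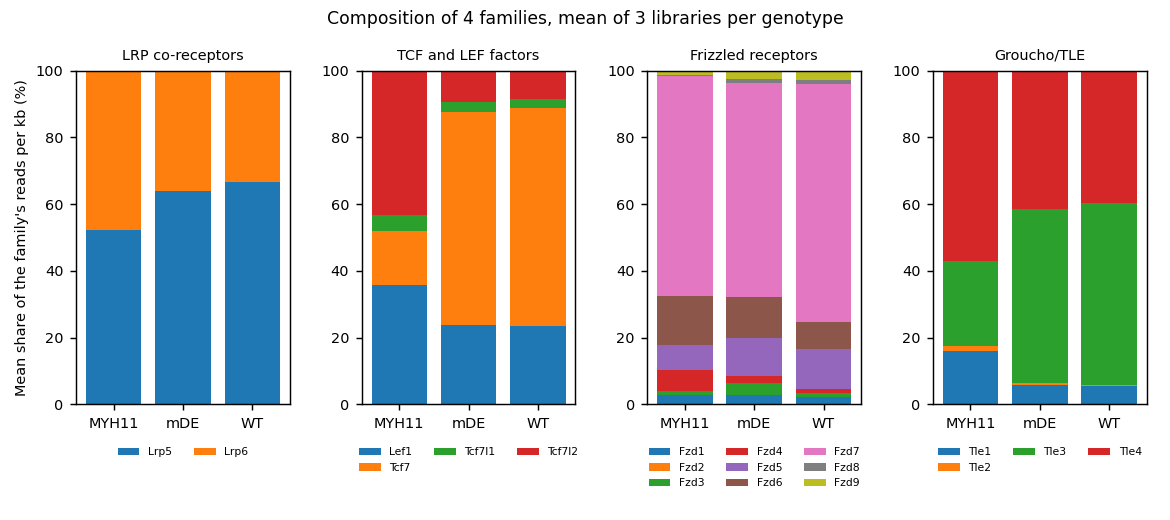
Share of each gene in the summed normalised reads per kb of its family (%, stacked bars, mean of 3 libraries) for the LRP co-receptors, TCF and LEF factors, Frizzled receptors and Groucho/TLE genes, in Cbfb+/MYH11, Cbfb+/mDE and WT. Tcf7l2 rises to 43.1% in Cbfb+/MYH11 against 8.61% in WT, Fzd4 to 6.42% against 1.10% and Tle1 to 16.1% against 5.46%.

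A further 90 genes of the pathway, from lists chosen by function, were set beside the members. Of the 62 tested, 32 rose and 14 fell in Cbfb+/MYH11 over WT, 1 rose and 0 fell in Cbfb+/mDE over WT, and 29 rose and 20 fell in Cbfb+/MYH11 over Cbfb+/mDE. Of all genes tested, 32% rose and 27.8% fell in the first of these comparisons, and 0.821% and 0.42% in the second. In the third, 29.6% of all genes rose and 26% fell. The median log2 fold change of the 62 pathway genes in Cbfb+/MYH11 over WT was 0.27, beside 0.016 for all genes. The 9 remaining Wnt and Frizzled genes (Wnt1, Wnt3, Wnt3a, Wnt7a, Wnt7b, Wnt8a, Wnt8b, Wnt9b and Fzd10) were all too low to test.

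The genes that release Wnt proteins moved in opposite directions. Porcn, the enzyme that attaches the lipid to Wnts, had 74.1, 61.4 and 77.1 normalised reads in Cbfb+/MYH11, 26.5, 4.50 and 17.5 in Cbfb+/mDE and 13.5, 9.60 and 9.40 in WT, a rise over WT of 2.61 ± 0.51 SE on the log2 scale (adjusted p = 0.00175). Porcn was above the read filter in every library of Cbfb+/MYH11 but not of Cbfb+/mDE or WT. Its adjusted p is therefore not support beyond the values. Wls, the carrier that takes Wnts to the cell surface, fell to 2773, 3322 and 3103 normalised reads in Cbfb+/MYH11, against 4279, 5056 and 5392 in Cbfb+/mDE and 4452, 4522 and 4886 in WT (log2 fold change -0.59 ± 0.09, adjusted p = 0.000511). Neither gene's Cbfb+/MYH11 libraries overlapped those of WT.

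In the R-spondin axis, which tunes how many Frizzled receptors stay on the surface, 3 of 5 tested genes rose in Cbfb+/MYH11 over WT and 0 fell. Beside this, 32% of all genes tested rose and 27.8% fell. The ligand Rspo1 had 126, 192 and 108 normalised reads in Cbfb+/MYH11, 20.9, 28.8 and 33.9 in Cbfb+/mDE and 18.3, 19.2 and 14.1 in WT (log2 fold change over WT 2.94 ± 0.28 SE, adjusted p = 1.93e-05). The ubiquitin ligase Rnf43, which removes Frizzled, rose by 1.13 ± 0.17 (adjusted p = 0.000399) and the receptor Lgr5 by 1.24 ± 0.42 (adjusted p = 0.0294). Lgr4, the related receptor, was the 1 pathway gene called in Cbfb+/mDE over WT, with 94.0, 132 and 83.3 normalised reads in Cbfb+/MYH11, 344, 233 and 331 in Cbfb+/mDE and 138, 140.1 and 147 in WT. All Cbfb+/mDE libraries were above all others (log2 fold change over WT 1.07 ± 0.20, adjusted p = 0.0444). The call was lost in a fit of only these 2 groups and without WT replicate 1, 2 or 3, Cbfb+/mDE replicate 1 or 3 or Cbfb+/MYH11 replicate 1 or 3.

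Of the 15 secreted and surface inhibitors, 4 were tested and 3 rose in Cbfb+/MYH11 over WT: Apcdd1 by 1.996 ± 0.231 SE on the log2 scale (adjusted p = 6.91e-05), Dkk3 by 2.48 ± 0.36 (adjusted p = 0.000300) and the Dickkopf receptor Kremen1 by 0.54 ± 0.12 (adjusted p = 0.00438). Sfrp4 passed no test (adjusted p = 0.141). Among all genes tested, 32% rose and 27.8% fell in this comparison. Among 19 further genes of the destruction complex and its kinases, 18 were tested, 11 rose and 3 fell, beside the same all-gene shares. The 4 with the smallest adjusted p were the casein kinase Csnk1g1 (log2 fold change 0.68), the Gsk3 inhibitor Frat2 (-0.88), the Apc relative Apc2 (2.50) and the Apc partner Amer1 (0.92), with adjusted p from 1.46e-05 to 7.54e-05. Apc2 was above the read filter in all libraries of Cbfb+/MYH11 and Cbfb+/mDE but not of WT. It was thus tested through the groups where it is higher, and its adjusted p is not support beyond the values.

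Of 17 nuclear partners of beta-catenin, 16 were tested, 8 rose and 6 fell in Cbfb+/MYH11 over WT. The shares of all genes that rose and fell were 32% and 27.8%. The Groucho corepressors, which hold TCF targets off, did not all move one way: Tle1, Tle2 and Tle4 rose and Tle3 fell. Tle1 rose to 1091, 984 and 1078 normalised reads in Cbfb+/MYH11, against 462, 499 and 445 in Cbfb+/mDE and 384, 407 and 425 in WT (log2 fold change over WT 1.37 ± 0.08 SE, adjusted p = 1.23e-06). Tle3 fell to 2294, 2282 and 2109 normalised reads in Cbfb+/MYH11, against 5189.7, 5439 and 6125 in Cbfb+/mDE and 5137, 5705 and 5471 in WT (-1.29 ± 0.07, adjusted p = 1.02e-06). Tle2 rose by 2.27 ± 0.28 (adjusted p = 0.000111) and Tle4 by 0.34 ± 0.06 (adjusted p = 0.000652). Both were named after their values were seen, to complete the family. Tle2 was above the read filter in all libraries of Cbfb+/MYH11 and Cbfb+/mDE but not of WT. It was thus tested through the groups where it is higher, and its adjusted p is not support beyond the values. The coactivator Bcl9l rose by 1.34 ± 0.10 (adjusted p = 6.5e-06).

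In the planar polarity branch, which does not use beta-catenin, 13 of 14 genes were tested, 4 rose and 3 fell in Cbfb+/MYH11 over WT. Rises made up 32% and falls 27.8% of all genes tested. Prickle1 rose by 2.51 ± 0.18 SE on the log2 scale (adjusted p = 4.26e-06) and the cadherin Celsr2 by 1.44 ± 0.20 (adjusted p = 0.000205). Prickle3 (-1.25 ± 0.13, adjusted p = 3.64e-05) and the membrane protein Vangl1 (-2.06 ± 0.26, adjusted p = 0.000107) fell. Prickle1 and Prickle3 are paralogs, and they moved in opposite directions.

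Textbook targets of canonical signalling were mixed. Of 15 such genes, 12 were tested; 7 rose in Cbfb+/MYH11 over WT (Axin2, Nkd1, Lgr5, Rnf43, Apcdd1, Tnfrsf19 and Myc), 2 fell (Tcf7 and Cd44) and 3 passed no test (Lef1, Znrf3 and Ccnd1). The list's median log2 fold change was 0.82. This list overlaps those above: Axin2 is a member, and Lgr5, Rnf43 and Apcdd1 were already counted there. The counts of the lists are therefore not separate from each other. Among all genes tested, 32% rose and 27.8% fell in the same comparison. Nkd1, a feedback inhibitor that binds Dishevelled, had 34.3, 35.8 and 39.9 normalised reads in Cbfb+/MYH11, 2.20, 3.60 and 0 in Cbfb+/mDE and 3.86, 2.88 and 3.52 in WT (log2 fold change over WT 3.09 ± 0.50 SE, adjusted p = 0.000567). Nkd1 was above the read filter in Cbfb+/MYH11 alone, so it entered the test only through the group where it is high. Its adjusted p is therefore not support beyond the values. Cd44, an adhesion receptor found on many blood cells, fell to 12311, 13813 and 11182 normalised reads in Cbfb+/MYH11, against 21923, 23312 and 26765 in Cbfb+/mDE and 18232, 22070.0 and 21895 in WT (-0.74 ± 0.11, adjusted p = 0.000318). Beside these values stand the shifts in mast cell and late neutrophil markers given above, whose part was not tested.

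**Figure D5:**
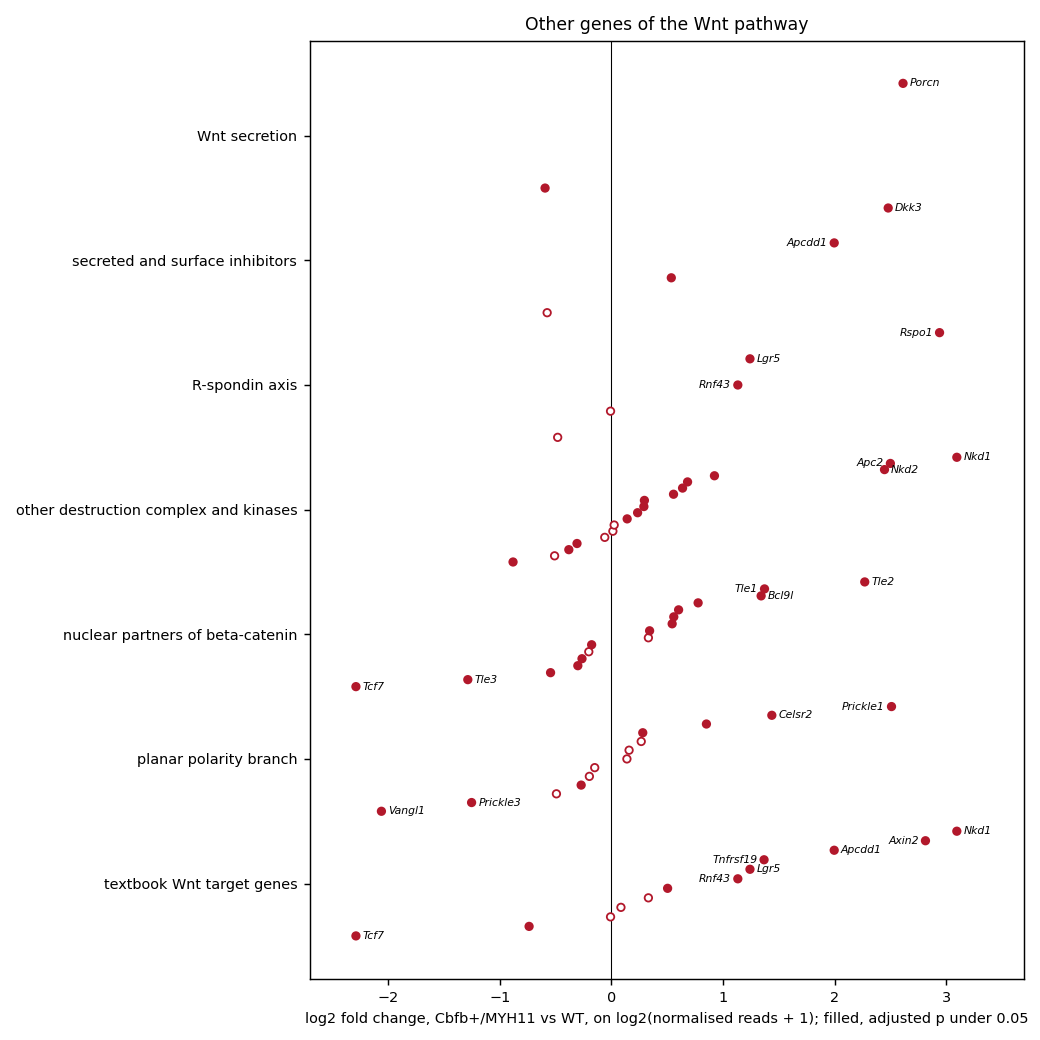
Log2 fold change on log2(normalised reads + 1) in Cbfb+/MYH11 over WT for the tested genes of 7 pathway lists (rows, 1 point for a gene in each list that holds it). Filled points have an adjusted p under 0.05 and genes past a change of 1 on the log2 scale in either direction are named. Nkd1 lies farthest right at 3.09 and Tcf7 farthest left at -2.29, and most lists hold filled points on both sides of 0.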

How the data were processed

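RNA-seq of 9 libraries (3 Cbfb+/MYH11, 3 Cbfb+/mDE, 3 WT) was analysed from the deposited table. The submitters' processing notes name CASAVA 1.8.2, STAR 2.4, RSEM, DESeq2 and GRCm38, with no order or role. The values the authors deposited are a signal, gene counts divided by 1 size factor per library; every value was a whole multiple of what 1 read is worth within a relative tolerance of 1e-06 (100% of values), so reads were recovered, 39300366 to 50073097 per library. A gene with 0 reads allows up to 3, or 2.56 to 3.52 normalised reads. The 2 columns of deposited fold changes and adjusted p-values, whose comparison the file does not name, were not used.

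Genes passing filterByExpr on recovered reads (15948) were tested by limma-trend (limma 3.58.1, R 4.3.3) on log2(value + 1), all 9 libraries in 1 fit by genotype, 6 residual degrees of freedom, Benjamini-Hochberg, threshold 0.05. On simulated data it recovered 66% to 82% of 2-fold changes, planted only in genes well above 0 in WT. A gene that was not called may therefore still have changed. edgeR 4.0.16 and DESeq2 1.42.0 on recovered reads, other scalings, filters, pseudocounts and left-out libraries were alternatives. Levels per kb use GENCODE M21 exon length. Members named in full were called, changed by at least 1 on the log2 scale and averaged at least 50 normalised reads in the highest group; from each pathway list up to 4 called genes were named by smallest adjusted p over WT, with every gene called in Cbfb+/mDE over WT. The full membership of the target list was named after its values were seen. Members, gene lists and tests were chosen with earlier results of these data known. Tle5 was matched by its older symbol Aes.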

Additional observations from a re-analysis of the deposited data

How the results depend on the processing

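The count of called members stayed within 10 to 16 in Cbfb+/MYH11 over WT and 10 to 15 in Cbfb+/MYH11 over Cbfb+/mDE under the alternatives run. In Cbfb+/mDE over WT limma and edgeR called 0 members and DESeq2 called 2. Over all genes that comparison gave 198 calls by limma, 944 by DESeq2, 61 with only the 2 groups, 101 with the replicate block, 123 with 5 CPM required and 32 to 262 with single libraries left out. The single other pathway gene called there depended on the setting: 0 genes were called when 5 CPM was required of 3 or more libraries, with only the 2 groups compared or with the replicate number as a block, 4 by DESeq2, and 0 to 2 when single libraries were left out. Deviations of same-numbered libraries from their group means had correlations from -0.15 to 0.12. With 3 libraries a group these cannot tell whether the numbers mark a batch or pairing, and the labels do not say. With the replicate block 14, 0 and 15 members were called. Other scalings moved the median of all genes by at most 0.022 on the log2 scale, and no direction of a named member reversed. The fitted log2 fold change of Wnt2 over WT ran from 9.04 to 11.80 with the setting, since WT was at or near 0.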

Other observations

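The 13 genes with any read that start within 500 kb of Wnt2 were looked at after its values had been seen, and these values belong to no planned comparison. The neighbours Capza2 and St7 were higher in Cbfb+/MYH11 over WT by 0.25 ± 0.06 and 0.32 ± 0.08 SE on the log2 scale (limma adjusted p = 0.00558 and 0.00699). Asz1, whose start lies 78.5 kb from that of Wnt2, had 0.904, 0.852 and 1.77 normalised reads in Cbfb+/MYH11 and 0 in each Cbfb+/mDE and WT library. Cftr averaged 16.2 ± 2.50 normalised reads in Cbfb+/MYH11, 8.30 ± 5.30 in Cbfb+/mDE and 18.7 ± 7.12 in WT (SD, n = 3 each), a log2 fold change over WT of -0.14 ± 0.54 SE (adjusted p = 0.841). Cttnbp2, at 484 kb, had 26.2, 39.2 and 19.5 normalised reads in Cbfb+/MYH11, 1.10, 34.2 and 32.8 in Cbfb+/mDE and 3.86, 1.92 and 3.52 in WT (log2 fold change over WT 2.82 ± 0.94 SE, adjusted p = 0.0276). Cttnbp2 was above the read filter in every library of Cbfb+/MYH11 but not of Cbfb+/mDE or WT. Its adjusted p is therefore not support beyond the values. None of these neighbours came near the difference seen at Wnt2.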
